A study of Homo sapiens with 4 samples.

Results

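The interleukin-1 (IL-1) family was followed on 4 microarrays of HuCCT1 cells, a human intrahepatic cholangiocarcinoma cell line. The 9 genes are 5 agonist ligands (IL1A, IL1B, IL18, IL33 and IL36G), the receptor antagonist IL1RN, the signalling receptor IL1R1, its accessory chain IL1RAP and the decoy receptor IL1R2. They were chosen by name, with earlier results of these data known. Their probes were found through the transcript accession given for each probe. This gave 12 probes out of 34127 on the array. Of the 9 genes, 3 had 2 probes and 6 had 1.

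The cells were transfected with 30 nM of 1 of 4 RNAs with a lipid reagent. Pre-miR-376c is a synthetic mimic of the mature microRNA, and the Pre-miR negative control (miControl) is its counterpart. siGRB2 is a small interfering RNA against GRB2, the adapter protein that links the epidermal growth factor (EGF) receptor to Ras, and the nonspecific AllStars siRNA (siControl) is its negative control. After 24 h, all 4 cultures received EGF at 5 ng/ml in medium with 0.1% serum for 24 h, and 200 ng of total RNA from each was labelled with a single dye. Every group therefore shared transfection, low serum and EGF, and no group without EGF or without transfection was analysed here. Each group has 1 array, so no test between groups was possible. How precise a difference is depends on that number above all, and the errors printed are those of an array.

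IL-1 family cytokines are signals of epithelial damage and infection. An agonist binds its receptor and an accessory chain joins, which is IL1RAP for IL-1, IL-33 and IL-36. The paired intracellular domains recruit MYD88 and IRAK kinases, which lead to NF-kB and stress kinases and so to chemokines and proteases. IL1RN occupies IL1R1 without recruiting IL1RAP, and IL1R2 binds the ligand but lacks the signalling domain. In the bile duct, cytokines of this family are known from inflammation of the biliary epithelium.

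The transfected microRNA is shown because it defines one of the treatments. The RefSeq table (GRCh38.p14) places the mature strand, earlier called miR-376c, at chr14:101039732-101039752 on the plus strand, and its seed, bases 2 to 8, is in capitals.
hsa-miR-376c-3p: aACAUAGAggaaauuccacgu
Of 2370 mature human names in that table, 1 holds this seed. Matches to the seed in transcripts of the family were not analysed here.

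The RefSeq promoter windows, 300 bases running from 250 before to 50 after a transcript start, are shown where they hold the letters of AP-1, a family of transcription factors that EGF and GRB2 signalling activate through Ras and MAP kinases. The table held 16 windows for 8 of the 9 genes and none for IL18. On either strand, the AP-1 letters TGANTCA were found in 3 of the 16 windows, from IL1A (2 overlapping windows) and IL1RN, against 7.709% of all 35116 windows. The matches are in capitals.
IL1A, minus strand, chr2:112784491-112784513, 105 bases before a start site: aagaagacTGACTCAggcttaag
IL1A, minus strand, chr2:112784441-112784463, 55 bases before the same start site: ttggcgttTGAGTCAgcaaaggt
IL1RN, plus strand, chr2:113117740-113117762, 223 bases before a start site: tgctagccTGAGTCAccctcctg
The IL1B windows held no AP-1 match. The NF-kB consensus was found in 0 of the 16 windows against 5.909% of all windows, and TATAAA in 4 of the 16, from IL1A, IL1RN, IL1R1 and IL1R2, against 11.53%. A match is a run of letters and not a shown binding site.

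Levels are the log2 background-corrected intensity of a probe minus the 75th percentile of its array, so that 0 is the brightness at that percentile. They compare 1 probe across arrays, and not 1 gene with another. A probe counted as detected on an array when the scanner software marked over 0.5 of its spots as well above background. A probe was called when it differed by at least 2-fold (1 log2 unit) between arrays and was detected on at least 1 of them. Where only 1 array detected it, the fold is a lower bound, taken against the lowest signal well above background or the probe's own signal, whichever was higher. Errors are those the scanner software estimates for a spot, about 0.20 log2 units for a difference of bright probes. Neither they nor the SD between spots of a probe include the variation between cultures. In bulk RNA, fewer cells of a type and less RNA per cell cannot be told apart.

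Before the family itself, 3 features of the arrays bear on its values. GRB2 had levels of 0.62 with miControl, 0.07 with Pre-miR-376c, -0.10 with siControl and -0.65 with siGRB2. It was lowest on the siGRB2 array, -0.55 from siControl and -1.27 from miControl. The Pre-miR-376c array was at -0.55 from miControl but 0.17 above siControl, so its direction turned with the control. The GRB2 values come from 1 probe with 1 spot. The siControl array stood apart from the other 3. Of 21239 probes detected on all arrays, 1247 to 1749 differed by at least 2-fold in the pairs with siControl, against 231 to 283 in the other pairs, and siControl was the array farthest from the rest for 55.8% of them. Differences of family members are therefore given from both negative controls. All 5 markers of biliary epithelium (KRT7, KRT19, EPCAM, CDH1, SOX9) were detected on all 4 arrays. Of the hepatocyte genes, ALB and TTR were detected on none. APOA1 was detected on all 4 by the probe A_33_P3298539 and on none by the probe A_23_P203191. Of 6 leukocyte genes, 4 were detected on all 4 arrays and none was undetected throughout. The probes of PTPRC, ITGAM, CD3E and MPO were dim, at -4.8 or lower on every array. CD14 was at -2.08 with siControl to -1.85 with siGRB2, and CD79A at -1.12 with siControl to 0.30 with Pre-miR-376c. Of 5 leukocyte probes detected on all 4 arrays, 4 were higher on both treated arrays than on both controls. Among all such probes 21.3% were. The summed level of the 6 genes ran from -0.32 on siControl to 0.69 on Pre-miR-376c. Of these genes CD79A alone was called, at 1.33 higher with siGRB2 than with siControl but 0.15 higher than with miControl. The Pre-miR-376c array was at 1.42 and 0.24 from the same controls, so the call rests on the siControl array. COL1A1 and VWF, of the 5 stromal and endothelial genes, were detected on all 4 arrays, and COL1A2 and PDGFRB on none. COL1A1, a collagen, was the 1 probe of that list called, at -1.01 with Pre-miR-376c from miControl and -0.63 from siControl. The part of other cell types in the results was not tested.

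Of the 12 family probes, 9 were detected on all 4 arrays. The other 3, for IL33, IL36G and 1 of the IL1R1 probes, were not well above background on the siControl array. The probes of IL1A, IL1B and IL18 had 10 spots each and the other 9 had 1.

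**Figure D1:**
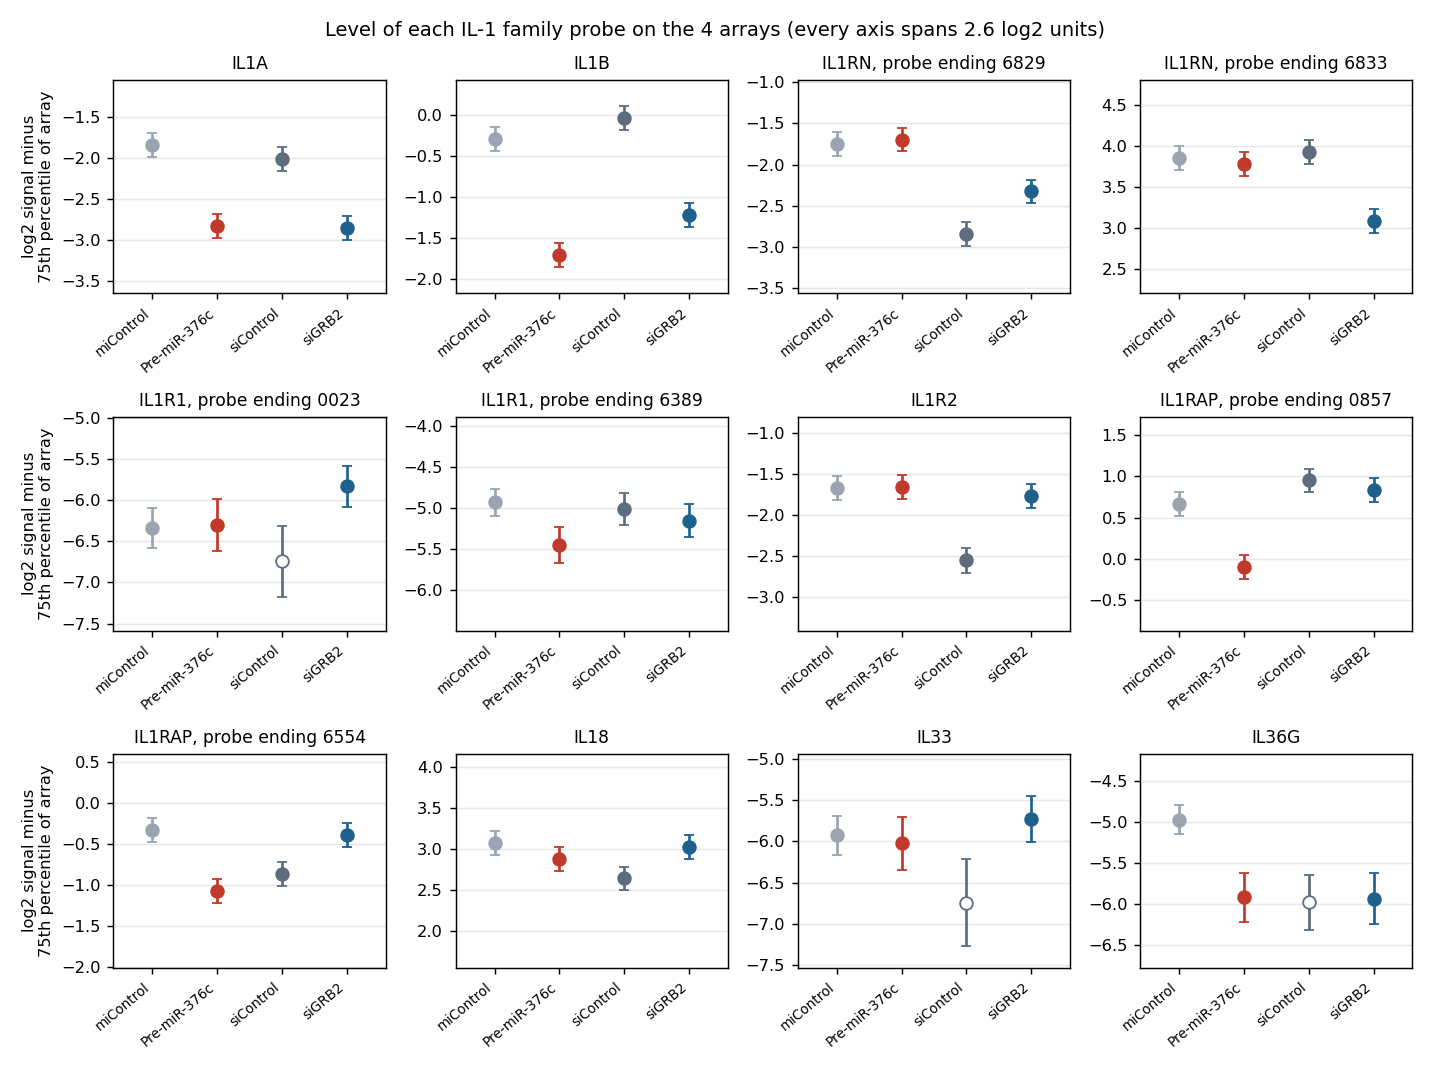
Level of each of the 12 IL-1 family probes (log2 intensity minus the 75th percentile of the array) on the miControl, Pre-miR-376c, siControl and siGRB2 arrays, 1 array each, with the scanner software's error as bars and open circles where the probe was not well above background. IL1A and IL1B are lower on both treated arrays than on both controls, both IL1RAP probes are lowest on the Pre-miR-376c array, and IL1R2 is low on the siControl array alone.

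The agonist genes IL1A and IL1B had the widest separation of treated from control arrays. IL1B encodes the secreted form, made as an inactive precursor that caspase-1 cleaves. Its level was -0.29 with miControl, -1.70 with Pre-miR-376c, -0.04 with siControl and -1.21 with siGRB2. Both controls were above both treated arrays, and no spot of a treated array reached any spot of a control. With Pre-miR-376c, IL1B was at 37.6% of miControl, a log2 difference of -1.41, and at -1.66 from siControl. With siGRB2 it was at 44.3% of siControl, a difference of -1.18, and at -0.92 from miControl, which is short of 2-fold. The controls were 0.25 apart and the treated arrays 0.49, both more than the error of 0.20. Its order was siControl, miControl, siGRB2 and Pre-miR-376c.

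IL1A encodes the form that is active without cleavage and stays mostly in or on the cell until damage releases it. Its level was -1.84 with miControl, -2.82 with Pre-miR-376c, -2.01 with siControl and -2.85 with siGRB2. The 2 treated arrays differed by 0.03 and the 2 controls by 0.17, each within the error of 0.21, and the groups did not overlap. The Pre-miR-376c array was at 50.5% of miControl (-0.99) and at -0.81 from siControl, so neither difference reached 2-fold. The siGRB2 array was at 55.7% of siControl (-0.84), and at -1.02 from miControl, past 2-fold. IL1A thus passed 2-fold in 1 of the 4 differences and IL1B in 3.

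Spots of a probe agreed closely. Spot values of IL1B ran from -0.40 to -0.14 with miControl, from -1.77 to -1.53 with Pre-miR-376c, from -0.13 to 0.13 with siControl and from -1.32 to -1.07 with siGRB2. For IL1A, the lowest spot on a control array was -2.08 and the highest on a treated array was -2.75. These spots share 1 labelled RNA per array, so their tightness describes the array and not the treatment.

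**Figure D2:**
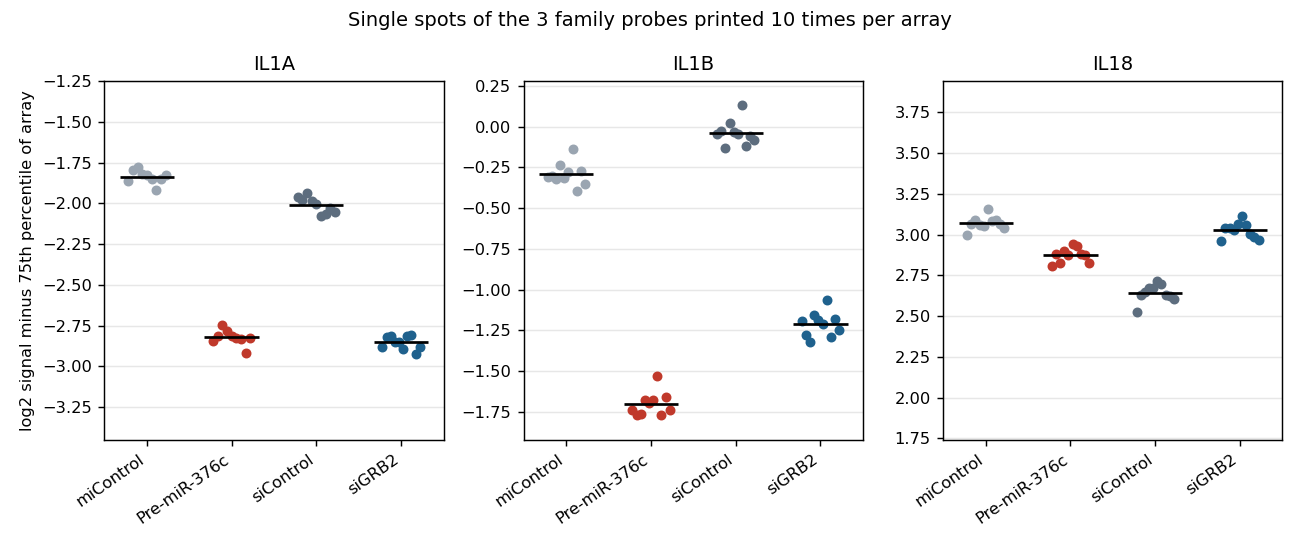
Single spots (points) and their mean (lines) for the IL1A, IL1B and IL18 probes on the 4 arrays, on the log2 scale minus the 75th percentile, with every axis spanning the same log2 range and spots with an outlier flag left out. Spots of IL1A and IL1B on treated arrays lie below all their control spots, while for IL18 the siControl array lies lowest.

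IL18, another caspase-1 substrate that many epithelia make without stimulation, had levels of 3.07 with miControl, 2.87 with Pre-miR-376c, 2.64 with siControl and 3.03 with siGRB2. Its treated arrays lay between the 2 controls. The differences were -0.20 for Pre-miR-376c from miControl and 0.38 for siGRB2 from siControl, and 0.23 and -0.04 from the other control, so the directions turned with the control used. The controls themselves were 0.43 apart.

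IL33 and IL36G were dim. IL33, a nuclear alarmin that binds IL1RL1, had levels of -5.93 with miControl, -6.02 with Pre-miR-376c and -5.73 on the siGRB2 array, and was not well above background with siControl. The Pre-miR-376c array differed from miControl by -0.10, against an error of 0.40, and the siGRB2 array was at least 1.51-fold above siControl and 0.20 above miControl. The 3 detected arrays thus spanned less than the error of a difference. IL36G, an epithelial agonist that binds IL1RL2, had levels of -4.97 with miControl, -5.92 with Pre-miR-376c and -5.94 on the siGRB2 array, and was again not well above background with siControl. The miControl array was above both treated arrays, by 0.95 and 0.96, and at least 2.0-fold above siControl. Its separation thus set miControl apart from the other 3 arrays, the other negative control included.

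IL1RN, the antagonist, had 2 probes that named the same transcript and went different ways. The probe A_33_P3246833 had levels of 3.85 with miControl, 3.78 with Pre-miR-376c, 3.92 with siControl and 3.08 with siGRB2. On 3 arrays these were within 0.14, and the siGRB2 array lay below them, at -0.84 from siControl and -0.77 from miControl. The probe A_33_P3246829 had levels of -1.75, -1.70, -2.84 and -2.33 in the same order. On it the siControl array was the lowest, the siGRB2 array was 0.51 above siControl and -0.57 from miControl, and the Pre-miR-376c array was 1.14 above siControl and 0.06 above miControl. For siGRB2 against siControl the 2 probes were 1.35 apart with an error of 0.29, and against miControl 0.20 apart. Both placed siGRB2 below miControl and below Pre-miR-376c, by 0.63 and 0.70 for the latter.

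The accessory chain IL1RAP, shared by the receptors for IL-1, IL-33 and IL-36, was lowest on the Pre-miR-376c array with both of its probes. The probe A_23_P170857 had levels of 0.67 with miControl, -0.10 with Pre-miR-376c, 0.95 with siControl and 0.83 with siGRB2. The probe A_23_P336554, which names another transcript of the gene, had levels of -0.34, -1.08, -0.87 and -0.39 in that order. Against miControl, Pre-miR-376c was at 58.8% on the first probe (-0.77) and 59.8% on the second (-0.74), which are 0.03 apart. Against siControl the differences were -1.05 and -0.21, the first past 2-fold and the second about as large as its error of 0.20. The 2 controls disagreed in opposite ways on these probes, siControl being 0.29 above miControl on the first and -0.53 from it on the second. The siGRB2 array differed from miControl by 0.17 and -0.05, both within the error, and from siControl by -0.12 and 0.48. It stood above the Pre-miR-376c array by 0.93 and 0.69. IL1RAP is the member with both probes below both controls on the Pre-miR-376c array and not on the siGRB2 array.

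IL1R1, the signalling receptor, was dim on both probes. The probe A_33_P3396389 had levels of -4.93 with miControl, -5.45 with Pre-miR-376c, -5.01 with siControl and -5.15 with siGRB2. The Pre-miR-376c array was lowest, at -0.52 from miControl and -0.44 from siControl, and siGRB2 was within the error of both controls, at -0.14 and -0.22. On the probe A_24_P200023 the Pre-miR-376c array differed from miControl by 0.04, and siGRB2 was the highest array, 0.50 above miControl and at least 1.4-fold above siControl. The 2 probes thus went opposite ways in every difference of a treated array from a control, with gaps from miControl of 0.56 for Pre-miR-376c (error 0.48) and 0.73 for siGRB2 (error 0.43).

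IL1R2, the decoy receptor, had levels of -1.68 with miControl, -1.66 with Pre-miR-376c, -2.56 with siControl and -1.78 with siGRB2. The first, second and last lay within 0.12 and the siControl array lay apart. The siGRB2 difference was 0.78 from siControl and -0.10 from miControl, and the Pre-miR-376c difference was 0.89 from siControl and 0.01 from miControl.

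**Figure D3:**
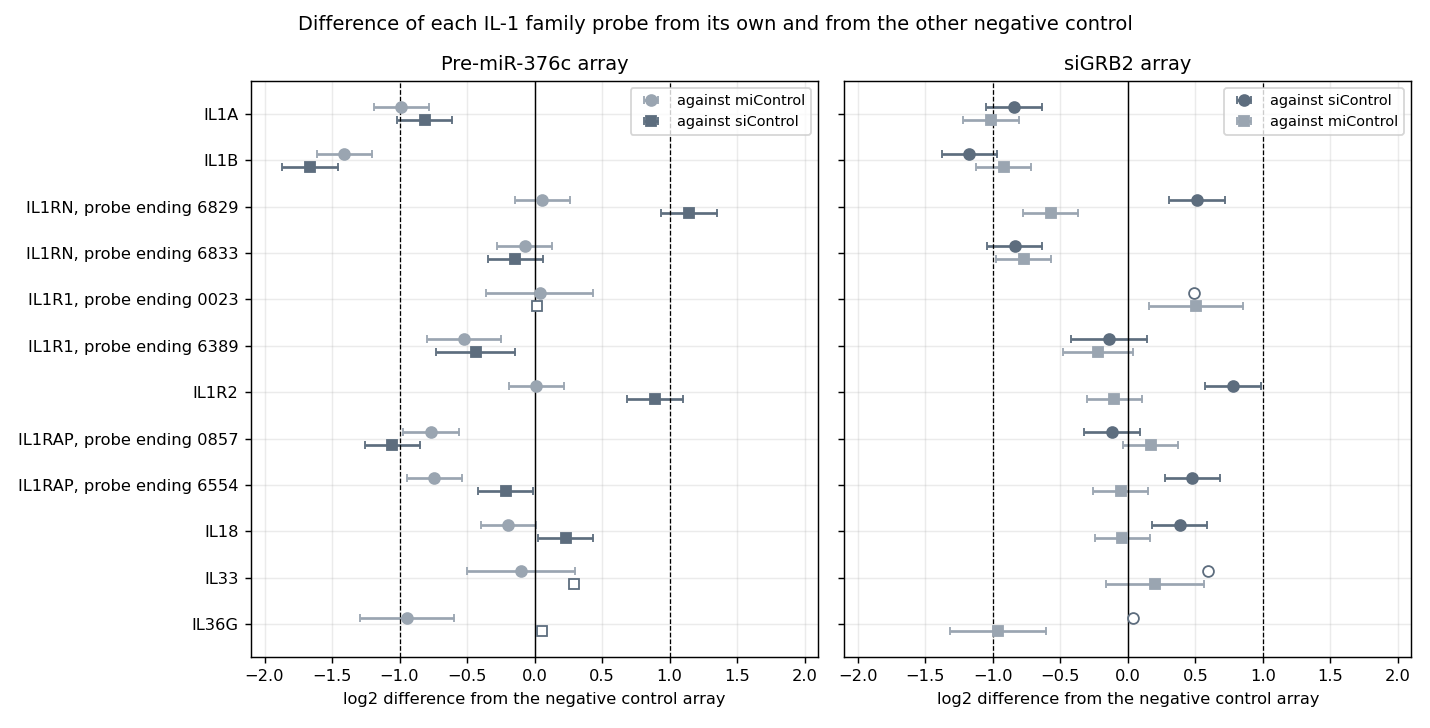
Log2 difference of each IL-1 family probe from both negative control arrays, for the Pre-miR-376c array (left) and the siGRB2 array (right), with circles for a treatment's own control, squares for the other, bars for the scanner software's error, open symbols for bounds and dashed lines at 2-fold. IL1A and IL1B lie below 0 from either control on both treated arrays, whereas IL1R2, IL18 and 1 IL1RN probe move with the control chosen.

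Counted over the family, Pre-miR-376c had 1 of 12 probes at least 2-fold below miControl (IL1B) and 0 above, where 1.47% of all 24384 probes were lower and 1.57% higher. The median difference of the 12 probes was -0.36 against -0.03 for all probes, and 9 of them were below 0, as were 53.6% of all. For siGRB2 against siControl, 1 probe was lower (IL1B) and 0 higher, where 3.11% of 23368 probes were lower and 6.71% higher. The median of the 9 probes measured on both arrays was -0.12 against 0.15 for all probes, and 5 were below 0, as were 39.7% of all. Under a shift to the median of each array in place of its 75th percentile, the split of all probes in this comparison turned from 727 lower and 1567 higher to 2042 and 640, and under quantile normalization to 1182 and 791.

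With the controls exchanged, Pre-miR-376c had 2 probes at least 2-fold below siControl (IL1B and 1 of IL1RAP) and 1 above (IL1RN), where 3.35% and 3.92% of all probes were called. The siGRB2 array had 1 probe below miControl (IL1A) and 0 above, where 1.01% and 1.93% were called. The member called with siGRB2 was thus IL1B from one control and IL1A from the other. Between the controls themselves, 2 family probes (IL36G and 1 of IL1RN) were at least 2-fold lower with siControl and 0 higher, where 6.1% and 3.07% of all probes were.

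Of the 9 family probes detected on all 4 arrays, 4 lay lower on both treated arrays than on both controls, where 13.6% of all such probes did so without any fold limit. Probes higher on both treated arrays numbered 0, where 21.3% of all were. The 4 probes differed in the size of the smallest of their 4 drops. It was 0.92 for IL1B, a drop reached by 8 of the 21239 probes (0.0377%), and 0.81 for IL1A, reached by 17 (0.0800%). For the other 2 it was 0.14 (IL1R1) and 0.07 (IL1RN), under the scanner error, and 5.41% and 8.56% of all probes had drops as large. IL1B had earlier been singled out in these data, and the members were chosen with earlier results known. The counts of members and their places among all probes are therefore a description.

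**Figure D4:**
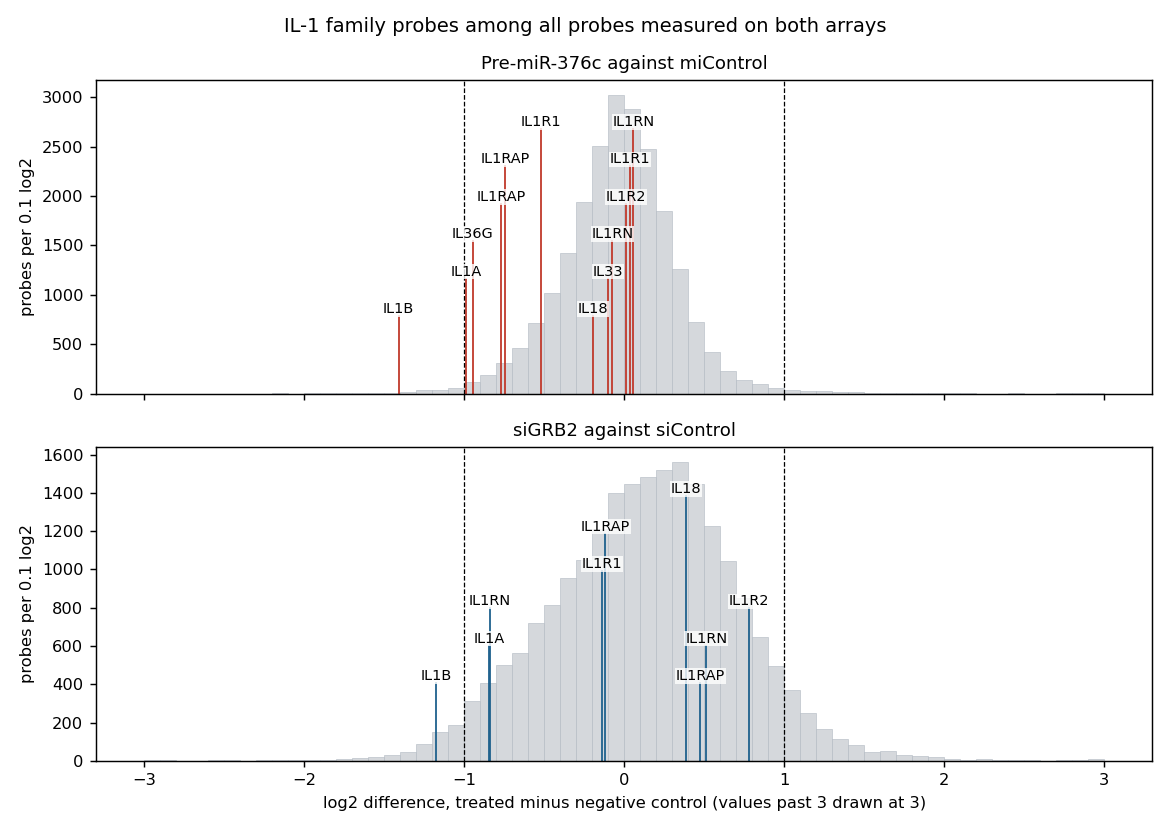
Log2 differences of all probes measured on both arrays (grey, probes per 0.1 log2 unit) with the IL-1 family probes marked by gene, for Pre-miR-376c against miControl (top) and siGRB2 against siControl (bottom), with dashed lines at 2-fold. IL1B lies past 2-fold in both, and the second comparison is wider and centred above 0, with a median of 0.15.

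By position, 6 of the 9 genes lie on chromosome 2, in 2 groups of neighbours. The RefSeq order of the ligand genes is IL1A, IL1B, IL37, IL36G, IL36A, IL36B, IL36RN, IL1F10 and IL1RN. IL37, an anti-inflammatory family member next to IL1B, had levels of -0.54 with miControl, -1.27 with Pre-miR-376c, -0.67 with siControl and -0.51 with siGRB2. It was low on the Pre-miR-376c array alone, at -0.73 from miControl and -0.61 from siControl, with 0.16 for siGRB2 from siControl and 0.03 from miControl. IL36A, IL36B and IL36RN were detected on 0 arrays, and IL1F10 differed from the controls by -0.14 to 0.26. IL37 on the siGRB2 array and IL1F10 on either treated array were not below both controls. IL1F10 was dim, with levels from -5.87 with siControl to -5.61 with Pre-miR-376c. In the same group, 1 IL1RN probe was below both controls on both treated arrays, by at least 0.07. IL36G was 0.95 and 0.96 below miControl, with siControl not well above background. A part of gene position was not tested. IL1R2 and IL1R1 are neighbours too, and IL1RAP, IL33 and IL18 lie on chromosomes 3, 9 and 11.

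The 5 named genes most like IL1B over the 4 arrays were GMFG, ASGR1, MMP9, MYH16 and CYP27C1. Likeness was the Euclidean distance between the 4 log2 values after the mean of each probe was removed, taken over 17438 named probes, and it was 0.25 for GMFG, ASGR1 and MMP9, 0.26 for MYH16 and 0.32 for CYP27C1. IL1A came at rank 66 with 0.61, and the nearest IL1RAP probe at rank 700 with 0.91. MMP9 had earlier been singled out with IL1B in these data as lower with both treatments, so its nearness is a description. Only 4 values enter each distance, and nothing about a common control follows from them.

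The rest of the pathway was taken from 4 lists of genes drawn from what is known of it, with earlier results of these data in view. Of the other 13 family genes (among them IL37, the IL-33 receptor IL1RL1 and the IL-18 receptor chains), 10 probes were detected in either comparison and 0 were called in either direction, with a median of -0.08 with Pre-miR-376c from miControl and one of 0.09 with siGRB2 from siControl. The medians of all probes were -0.03 and 0.15. IL1RL1 was dim, with levels from -5.66 with siGRB2 to -4.66 with Pre-miR-376c. Its Pre-miR-376c array was at 0.47 from miControl and 0.80 from siControl. Its siGRB2 array was at -0.52 from miControl and at -0.19 from siControl, the latter small for so dim a probe. SIGIRR, which dampens receptor signalling, differed from either control by -0.10 to 0.14. Both were named after their values were seen.

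Of 24 genes for processing and release of the cytokines (inflammasome sensors, caspases, calpains, gasdermins), 22 had a probe. With Pre-miR-376c 0 of 23 probes compared were called, where 1.47% of all probes were lower and 1.57% higher. The median was -0.19, against -0.03 for all probes. With siGRB2 0 of 22 were lower and 2 higher, where 3.11% and 6.71% of all probes were, and the median was 0.19 against 0.15 for all probes. The 2 were MEFV, the inflammasome sensor pyrin (1.03), and CAPN1, a calpain subunit (1.02), named here after their values were seen. From miControl they differed by -0.03 and 0.04, so both calls rest on the siControl array.

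Of 30 probes compared for 23 genes of receptor-proximal signalling, 1 was called with Pre-miR-376c and was higher, where 1.57% of all probes were higher. It was for UBE2V1, a cofactor for ubiquitin chains that activate the TAK1 kinase, at 1.17 from miControl and 0.28 from siControl. Its level was 0.92 with miControl and 1.81 to 2.09 on the other arrays, so the call rests on the miControl array. The median of the list was -0.17 against -0.03 for all probes. With siGRB2, 1 of 31 was lower and 4 higher, where 3.11% and 6.71% of all probes were, and the median was 0.18 against 0.15 for all probes. The kinase IRAK2 was lower at -1.25 (-0.50 from miControl). The kinase IRAK1 (1.20), the adapter TOLLIP (1.11), the NF-kB regulator IKBKG (1.1) and the kinase MAP2K3 (1.28) were higher on 1 probe each. From miControl these were at -0.37, -0.04, 0.44 and -0.40, none past 2-fold and 3 of them on the other side of 0. They too were named after their values were seen. Other probes for IRAK1 and TOLLIP differed from siControl by 0.02 and -0.15, and the other 2 for MAP2K3 by 0.78 and -0.13.

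Of 33 genes known to be induced by IL-1, 32 had a probe. Pre-miR-376c had 3 of 35 probes lower and 0 higher, where 1.47% and 1.57% of all probes were, with a median of -0.01 against -0.03 for all probes. The siGRB2 array had 2 of 33 lower and 1 higher, where 3.11% and 6.71% of all probes were, with a median of -0.28 against 0.15 for all probes. From miControl the siGRB2 median was -0.14 where that of all probes was 0.04. By the rule that a probe lies at least 2-fold from both controls, 3 genes are named. CXCL1, a neutrophil chemokine, had levels of 0.61 with miControl, -0.43 with Pre-miR-376c, 0.64 with siControl and -0.25 with siGRB2, so that Pre-miR-376c was at -1.03 and -1.06 from the controls. A further CXCL1 probe, A_33_P3330264, was not past 2-fold and turned with the control. It had Pre-miR-376c at -0.65 from miControl and 0.38 from siControl, and siGRB2 at -0.52 and 0.50. MMP9, a protease of the basement membrane, had levels of -2.32, -3.49, -2.05 and -3.36 with miControl, Pre-miR-376c, siControl and siGRB2. Both treated arrays were past 2-fold from both controls, and MMP9 had earlier been singled out in these data. CCL2, a monocyte chemokine, went the other way with siGRB2, at 1.15 from siControl and 1.23 from miControl, with levels of -4.75 with miControl, -4.02 with Pre-miR-376c, -4.66 with siControl and -3.51 with siGRB2.

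Other calls among the IL-1 response genes were tied to 1 control. CSF3, a granulocyte growth factor, was detected on the miControl array and on no other, by 1 of its 2 probes, and was at least 5.29-fold lower with Pre-miR-376c. The collagenase MMP1 was at -1.90 from siControl with siGRB2, with -0.43 from miControl. Among response genes that were not called, PTGS2, the inducible cyclooxygenase, was lower in all 4 differences. It was at -0.69 and -0.43 with Pre-miR-376c from miControl and siControl, and at -0.67 and -0.42 with siGRB2. Its probe was dim, from -5.16 with Pre-miR-376c to -4.47 with miControl. NFKBIZ, a nuclear cofactor of NF-kB, was lower in all 4 too, at -0.80 and -0.93 with Pre-miR-376c and at -0.42 and -0.55 with siGRB2, in the same order of controls. Of the 32 response probes detected on all 4 arrays, 5 were lower on both treated arrays than on both controls and 4 higher. Among all such probes, 13.6% were lower and 21.3% higher, so the share of lower probes was near that of all probes. The chemokine CXCL8 gave 0.08 and -0.51 on the Pre-miR-376c array, with 0.02 and -0.57 for siGRB2. Its probe was dim as well, from -5.10 with miControl to -4.52 with siControl. The cytokine IL6 gave 0.55 and 0.72 on the Pre-miR-376c array, with -0.14 and 0.03 for siGRB2. These genes, and CSF3 and MMP1, were named after their values were seen.

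**Figure D5:**
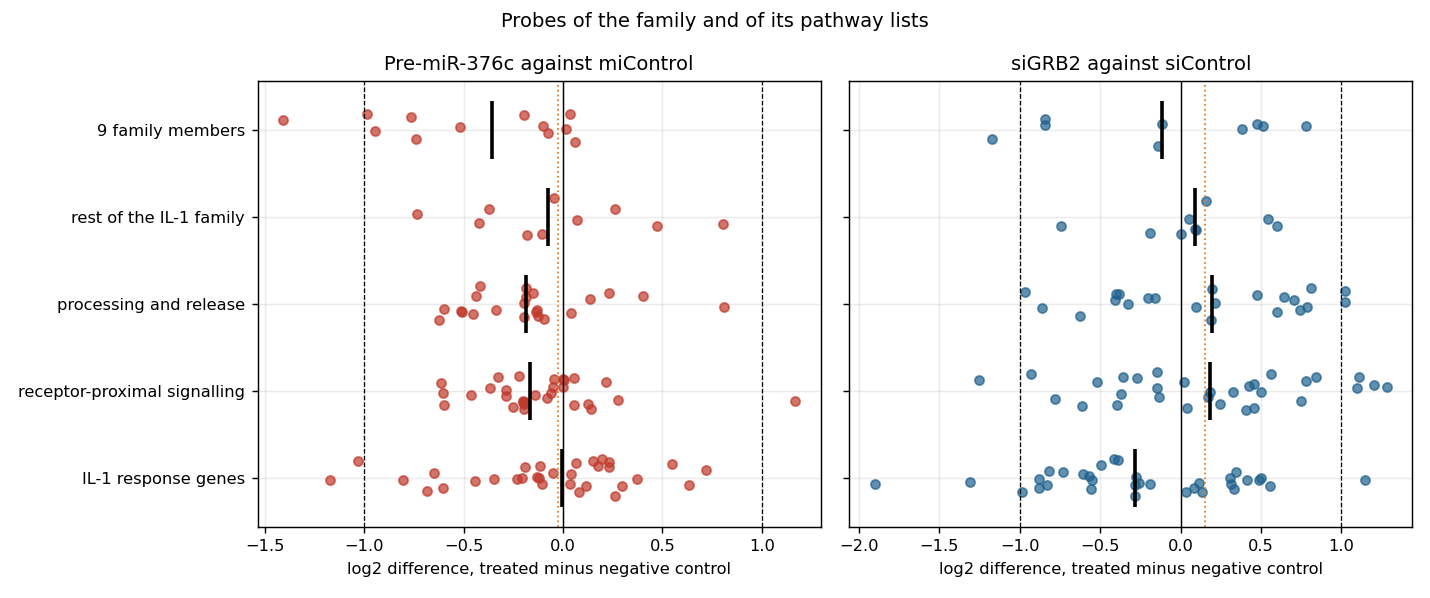
Log2 differences of the probes measured on both arrays (points) and their median (black bars) for the 9 family members and 4 pathway lists, for Pre-miR-376c against miControl (left) and siGRB2 against siControl (right), with dashed lines at 2-fold and the median of all probes dotted. The family medians (-0.36 and -0.12) lie below those of all probes (-0.03 and 0.15), and the IL-1 response genes lie on both sides of 0.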

How the data were processed

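Total RNA of 4 HuCCT1 cultures was hybridized to 1 array each of a human 44 K Agilent design. All arrays shared 1 slide and 1 scan. Any batch of culture, transfection or labelling is not given in the labels. With 1 array per group, it could not be told apart from the group. The authors deposited the spot intensity values of Agilent Feature Extraction (10.7.3.1 in the file headers, 10.7 in the submitters' processing notes), with background-corrected signals and quality flags. A second table that the authors deposited holds log2 values shifted to the 75th percentile. Its columns equalled log2 intensity minus a constant within 0.01 for 99.455% to 99.54% of probes, with medians of -3.393 (miControl), -3.442 (Pre-miR-376c), -3.588 (siControl) and -3.363 (siGRB2), and its centring constant is not given in the sources used here. The scanner headers name another genome build than the RefSeq table (GRCh38.p14), which was used for names, gene order and sequences only. It named 25422 of the 34127 probes by accession.

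Log2 intensities were shifted to the 75th percentile over 43118 spots per array, without the 289 to 329 spots flagged as outliers, and averaged per probe. No spot was saturated (0 on each array). The 75th percentile signal was 1719 to 2689 and the lowest signal well above background 21.2 to 24.4. Python (3.11.15), numpy (2.4.6) and pandas (2.3.3) were used, and R (4.3.3) with limma (3.58.1) for normexp. Calculations were tested on simulated data.

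The members, gene lists and tests were chosen with earlier results of these data known. The rule for named genes took all members, GRB2, list genes at least 2-fold from both controls on a treated array, and the 5 genes nearest to IL1B. Chromosomal neighbours, marker genes and other list genes were named outside this rule. Calls used a 2-fold limit, as the study did. Alternatives were quantile normalization, a median shift, another set of probes for the percentile, normexp (offset 50), the deposited table, flagged spots kept, the median over spots, stricter detection, limits of 1.5 and 3, the other control and the mean of both controls.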

Additional observations from a re-analysis of the deposited data

How the results depend on the processing

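No paired analysis was possible because each group has 1 array, and for the same reason no array could be left out. Counts of family probes moved with the fold limit and the control. For Pre-miR-376c against miControl, the 1 probe at least 2-fold lower became 5 at 1.5-fold, 0 at 3-fold and 2 against siControl. The 0 higher became 1 against siControl. Among all probes, 1715 of 24384 were lower at 1.5-fold and 108 at 3-fold. Against siControl, 769 of 22974 were lower and 900 higher. For siGRB2 against siControl, the 1 lower became 2 under quantile normalization, 3 under a median shift, 3 at 1.5-fold and 0 at 3-fold. The 0 higher became 2 at 1.5-fold and 7 under normexp background correction. Among all probes, 1182 of 23348 were lower under quantile normalization and 2042 of 23368 under a median shift. At 1.5-fold 2717 of 23368 were lower and 5192 higher, and at 3-fold 152 were lower. Under normexp 12450 of 23368 were higher. The other alternatives left the counts of family probes as they were. The 1 lower with siGRB2 was nevertheless IL1RN (-1.83) under normexp and IL1A against miControl, in place of IL1B. Normexp moved the median of all probes for siGRB2 against siControl from 0.15 to 1.03, and with it IL1B to -0.18 and IL1A to 1.35. The smallest drop then turned to -1.35 for IL1A and -0.089 for IL1B. Leaving out 7 spots of extreme local background on the siGRB2 array, an alternative chosen after seeing the data, gave drops of 0.73 and 0.85 and a median of 0.11. Under the other scaling, background and flag alternatives, likewise run after seeing the data for this measure, the drops were 0.75 to 0.93 for IL1A and 0.89 to 0.96 for IL1B. Of 235 values of single probes under alternatives, 185 moved by less than the scanner error and 50 by more, 14 of these with the other control. Some of the 185 could not move. Keeping flagged spots or taking the median over spots changed nothing for the 9 probes with 1 spot. The 7 spots left out under normexp were on the siGRB2 array, so for Pre-miR-376c that alternative repeated normexp. Brightness limits IL33, IL36G and IL1R1, whose errors of a difference reached 0.62.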
